A study of Mus musculus with 12 samples.

Results

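Goblet cells are the mucus-secreting cells of the airway lining. The 10 genes described here are goblet cell mucins and mucous secretion genes: Muc5ac, Muc5b, Clca1, Slc26a4, Spdef, Foxa3, Agr2, Itln1, Tff2 and Fcgbp. They are 10 of 78298 genes in a table of read counts from mouse lung. They were chosen by symbol from knowledge of goblet cells, with their group levels and library values in these same 12 libraries already known, so each value and p-value below describes them and none is independent support. No threshold was used, and all 10 passed the filter on low counts.

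RNA was sequenced from dissected tumours, which the labels call LLC, and from normal lung beside them, in mice given HDM (house dust mite, chronic exposure) or VEH, an abbreviation the labels do not spell out. Crossing tissue with treatment gave 4 groups of 3 libraries each. Strain, age, the tumour's origin, the number of mice and the length of treatment are not given in the sources used here, and no replicate is stated to be a separate animal, so p-values measure the spread between these libraries. Pieces were cut out by hand under a microscope.

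Mucus is built from gel-forming mucins, which are long glycoproteins packed into granules and released into the airway. In goblet cells the transcription factors Spdef and Foxa3 drive the mucous programme, Agr2 helps mucins fold in the endoplasmic reticulum, and Muc5ac and Muc5b form the gel. Clca1, Tff2, Fcgbp and Itln1 are secreted with the mucins, and Slc26a4 (pendrin) exchanges anions at the cell surface. Interleukin-13, the type 2 cytokine of allergic airways, is known to switch on this programme, and house dust mite is a common allergen in mouse models of it.

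Total counts ranged from 20608682 to 32765364 per library. Levels are CPM (a gene's share of a library's counts on a common scale) after scaling between libraries, and RPKM is CPM per kilobase of gene length, used to compare one gene with another. Library names carry 6 prefixes, each joining 1 normal and 1 tumour library, and for 2 prefixes (4 libraries) the treatment labels disagree: the prefix of normal VEH replicate 2 is shared by tumour HDM replicate 2, and that of normal HDM replicate 3 by tumour VEH replicate 3. Labels were kept as given. Tumour HDM replicate 3 stood apart, by genes picked after their values were seen: the epithelial genes Epcam and Cdh1 were at 0 counts there, although the keratin gene Krt8 had 11039, and 8 of the 10 goblet genes were at 0 counts. Normal HDM replicate 2 and tumour VEH replicate 2 stood apart in the goblet genes themselves, as described next.

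Of the mucins Muc5b and Muc5ac, Muc5b had more transcript in every library that had any. Its levels in replicates 1, 2 and 3 were 33.6, 32.6 and 46.1 CPM for normal VEH, and 44.4, 564 and 24.9 CPM for normal HDM. In tumours it was 7.82, 370 and 117 CPM under VEH and 52.1, 15.4 and 0 CPM under HDM. The normal VEH libraries lay close together, whereas normal HDM replicate 2 and tumour VEH replicate 2 stood far above the other libraries of their groups. Group means were 37.4 ± 7.55 CPM in normal VEH, 211 ± 306 in normal HDM, 165 ± 186 in tumour VEH and 22.5 ± 26.7 in tumour HDM (SD, n = 3 each), so no neighbours in that order differed by more than their spread. Because these are pieces of tissue, fewer goblet cells and less mucin RNA per cell cannot be told apart.

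Muc5ac, the mucin best known for rising in allergic airways, had 3.12, 1.20 and 2.11 CPM in the normal VEH libraries and 1.31, 20.2 and 1.80 CPM in the normal HDM libraries, in replicate order. The tumour libraries held 0.425, 11.9 and 3.41 CPM under VEH and 0.739, 0.478 and 0 CPM under HDM. The same pair of libraries was again the highest. Group means were 7.76 ± 10.7 CPM in normal HDM, 5.23 ± 5.93 in tumour VEH, 2.14 ± 0.963 in normal VEH and 0.406 ± 0.375 in tumour HDM (SD, n = 3 each), and of neighbours in that order only the last differed by more than their spread. Per length, Muc5b exceeded Muc5ac: 37.7 against 1.88 RPKM in normal HDM replicate 2 and 24.7 against 1.10 RPKM in tumour VEH replicate 2. The genes for these mucins lie side by side on chromosome 7 in the same orientation, Muc5ac at chr7:141342709-141372968 and Muc5b at chr7:141392807-141426821 (GRCm39, plus strand), with 19838 bases between them.

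**Figure D1:**
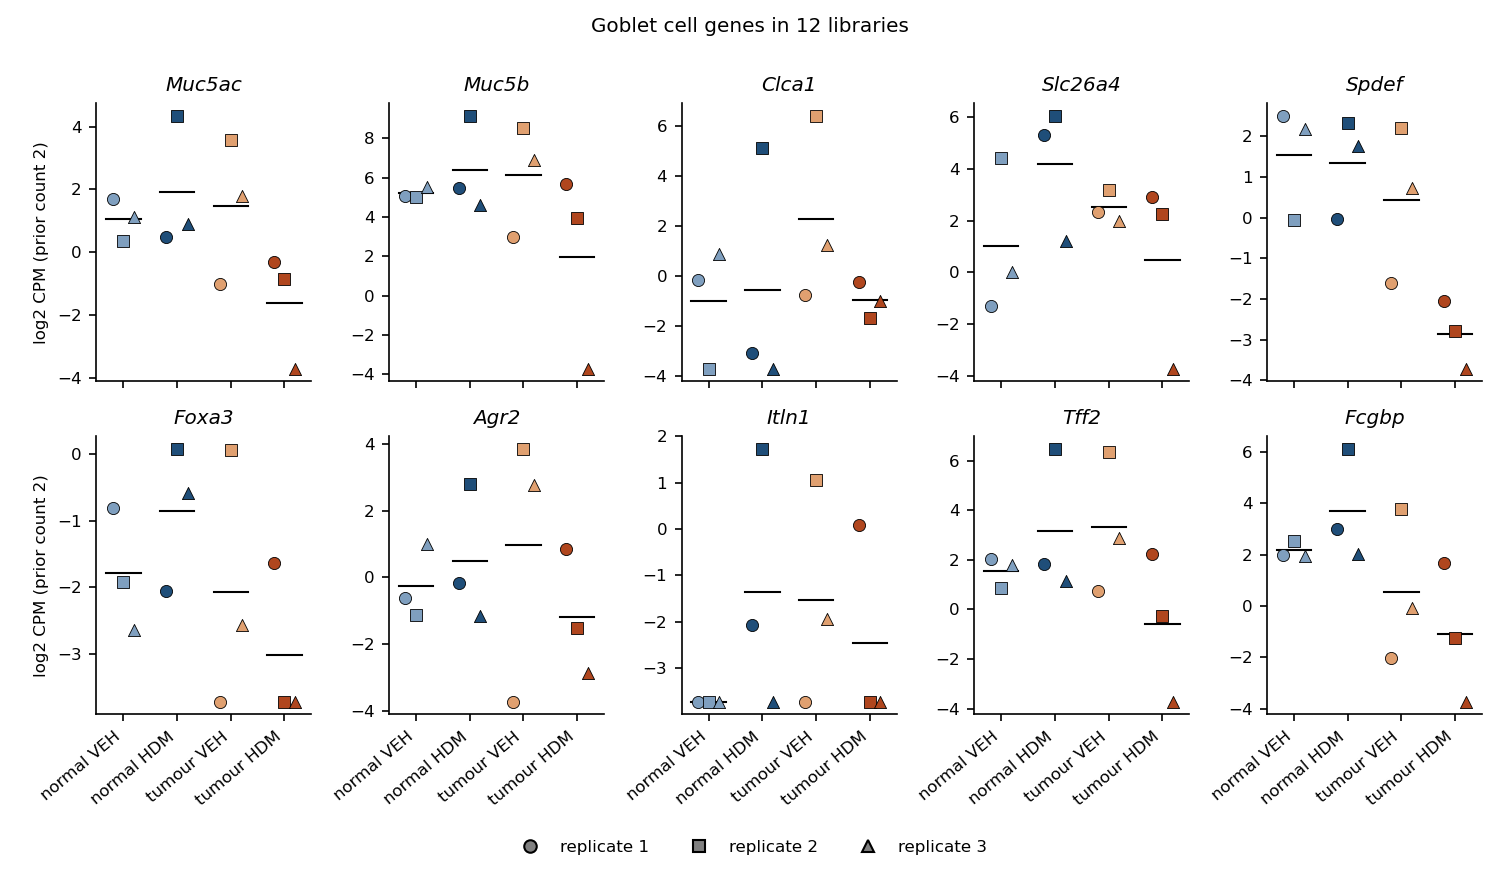
Level of each of the 10 goblet genes in the 12 libraries, as log2 CPM with a prior count of 2, by group; symbols mark replicates 1, 2 and 3 and the bar is the group mean. In 8 panels the highest pair of points is normal HDM replicate 2 and tumour VEH replicate 2, and 8 of the 10 genes are at 0 counts in tumour HDM replicate 3.

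Clca1, a secreted protein used as a marker of interleukin-13 exposed airway epithelium, was nearly absent outside that pair. It had 911 counts (34.4 CPM) in normal HDM replicate 2 and 2281 counts (84.8 CPM) in tumour VEH replicate 2. The other 5 normal libraries ranged from 0 to 1.77 CPM and the other tumour libraries from 0.239 to 2.31 CPM. The pair held 94.5% of the CPM summed over all 12 libraries, the most concentrated of the 10 genes. Clca1 belongs to a cluster of related genes, so reads shared with a relative are uncertain.

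Tff2, a trefoil peptide that is secreted with mucins, was at 89.8 CPM in normal HDM replicate 2 and 81.3 CPM in tumour VEH replicate 2. It was between 1.76 and 4.02 CPM in the other 5 normal libraries and between 0 and 7.34 CPM in the other 4 tumour libraries. Per length it was the most abundant of the goblet genes in the pair, at 154 and 139 RPKM. The pair held 85.5% of its summed CPM. Its group means of 31.8 ± 50.2 CPM in normal HDM and 30.1 ± 44.5 in tumour VEH had SDs above the means, against 3.05 ± 1.16 in normal VEH and 1.78 ± 2.47 in tumour HDM (n = 3 each).

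Fcgbp, a large mucus protein that binds the constant part of antibodies, reached 69.7 CPM in normal HDM replicate 2 and only 13.5 CPM in tumour VEH replicate 2. Its other normal libraries were at 3.83 to 7.95 CPM and its other tumour libraries at 0 to 3.12 CPM. Agr2 went the other way, with 6.87 CPM in normal HDM replicate 2, 14.4 CPM in tumour VEH replicate 2 and 6.64 CPM in tumour VEH replicate 3, and 0 to 1.94 CPM elsewhere. Itln1, a lectin that binds microbial sugars, had 86 counts (3.25 CPM) and 54 counts (2.01 CPM) in the pair and 24 counts (0.986 CPM) in tumour HDM replicate 1. It was at 0 counts in 7 of 12 libraries, including all 3 of normal VEH, where 3 counts is taken as the floor of detection.

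Across the 10 genes, 8 had normal HDM replicate 2 and tumour VEH replicate 2 as their highest pair of libraries, the exceptions being Slc26a4 and Spdef. The highest library was normal HDM replicate 2 for 7 genes and tumour VEH replicate 2 for Clca1 and Agr2. The pair's share of the summed CPM ran from 94.5% for Clca1 through 79.8% for Itln1, 73.5% for Fcgbp, 71.4% for Muc5b, 68.7% for Muc5ac and 62.4% for Agr2 to 51.2% for Foxa3. It was 46.7% for Slc26a4 and 35.6% for Spdef.

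The transcription factors were scarce. Foxa3 had 100 counts over all 12 libraries, with 26 counts in each of normal HDM replicate 2 and tumour VEH replicate 2 (0.982 and 0.967 CPM) and 0 to 0.589 CPM elsewhere. Spdef was at 5.59, 0.881 and 4.46 CPM in normal VEH, 0.901, 4.98 and 3.31 CPM in normal HDM, 0.255, 4.54 and 1.57 CPM in tumour VEH and 0.164, 0.0683 and 0 CPM in tumour HDM. Spdef was thus at similar levels in normal VEH replicates 1 and 3 and in the pair of libraries with high mucin. Its tumour HDM libraries, with 4, 2 and 0 counts, lay under every other library. The group means were 3.64 ± 2.46 CPM in normal VEH, 3.07 ± 2.05 in normal HDM, 2.12 ± 2.19 in tumour VEH and 0.0775 ± 0.0825 in tumour HDM (SD, n = 3 each).

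Because most of these genes were highest in the same libraries, the promoters of 4 of them are shown: the neighbouring mucins, Tff2, whose pattern was nearest to the average of the 10, and Slc26a4, whose pattern was farthest from it. Each sequence is the 250 bases before the start of the GENCODE M39 canonical transcript, 5′ to 3′ on the gene's strand, from the GRCm39 genome (chr7:141342459-141342708 and chr7:141392557-141392806 on the plus strand, chr17:31363263-31363512 and chr12:31609928-31610177 on the minus strand). Capitals mark a match to a motif searched. The Slc26a4 stretch lies inside the annotated gene (chr12:31568169-31610244), because its canonical transcript starts inside that span. The same holds for Itln1 in the search below.
Muc5ac: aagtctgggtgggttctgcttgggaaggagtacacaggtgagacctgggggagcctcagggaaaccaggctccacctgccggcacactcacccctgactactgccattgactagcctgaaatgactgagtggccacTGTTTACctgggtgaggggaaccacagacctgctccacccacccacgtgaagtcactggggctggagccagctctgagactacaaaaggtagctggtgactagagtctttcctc
Muc5b: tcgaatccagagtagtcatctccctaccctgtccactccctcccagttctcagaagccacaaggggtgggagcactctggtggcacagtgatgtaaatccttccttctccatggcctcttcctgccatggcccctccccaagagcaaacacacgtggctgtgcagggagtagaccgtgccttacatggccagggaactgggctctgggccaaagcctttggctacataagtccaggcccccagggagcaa
Tff2: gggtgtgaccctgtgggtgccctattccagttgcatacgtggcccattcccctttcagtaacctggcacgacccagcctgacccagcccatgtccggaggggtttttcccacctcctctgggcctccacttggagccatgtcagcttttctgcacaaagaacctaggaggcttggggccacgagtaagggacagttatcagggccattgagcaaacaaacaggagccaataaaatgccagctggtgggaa
Slc26a4: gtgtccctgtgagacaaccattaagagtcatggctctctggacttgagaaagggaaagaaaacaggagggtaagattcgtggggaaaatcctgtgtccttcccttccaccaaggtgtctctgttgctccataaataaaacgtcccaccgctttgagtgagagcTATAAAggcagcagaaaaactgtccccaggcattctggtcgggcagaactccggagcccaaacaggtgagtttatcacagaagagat
The motifs were searched on both strands over 300 bases, 250 before to 50 after the start, in 21757 protein-coding promoters. The STAT6 letters, TTC and GAA with 4 bases of any kind between them, occurred in none of the 10 goblet promoters and in 6.82% of all promoters. The FOXA letters TGTTTAC occurred in Muc5ac, at -114 to -108 from the start, and in 3.15% of all. The SPDEF letters GGATGT occurred in none of the 10 and in 10.9% of all. The TATA letters TATAAA occurred in Slc26a4 (-87 to -82) and Foxa3 (-29 to -24) and in 13.2% of all promoters. A match describes letters only, and a missing match says nothing of the factor elsewhere.

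Slc26a4, the anion exchanger, had another pattern in normal lung. In replicate order it had 0.329, 21.4 and 0.926 CPM under VEH and 38.9, 65.3 and 2.25 CPM under HDM. The 3 high libraries (VEH replicate 2 and HDM replicates 1 and 2) are the 3 normal libraries whose prefixes join them to the tumour HDM libraries. Tumour libraries held 4.97, 8.92 and 3.92 CPM under VEH and 7.39, 4.75 and 0 CPM under HDM. Means were 35.5 ± 31.7 CPM in normal HDM, 7.54 ± 12.0 in normal VEH, 5.94 ± 2.64 in tumour VEH and 4.05 ± 3.75 in tumour HDM (SD, n = 3 each), no neighbours differing beyond their spread. Chil3, a chitinase-like protein of type 2 inflammation, was high in the same 3 normal libraries (7313, 7705 and 5271 CPM) and low in the others (75.3 to 203 CPM). Ear2, a ribonuclease of the same list, was at 136, 131 and 96.5 CPM in those 3 and 12.3 to 26.8 CPM in the others. Muc5b and Tff2 did not divide the normal libraries in this way: in normal VEH replicate 2 and normal HDM replicate 1 they were at 32.6 and 44.4 CPM and at 1.76 and 3.52 CPM. Chil3 and Ear2 were picked after their values were seen, and other genes of their type 2 list went either way. Il33 was at 140, 154 and 252 CPM in the 3 high libraries and 22.8 to 90.6 CPM in the other normal libraries. Gata3 was the reverse, at 3.46, 5.82 and 8.15 against 12 to 14.9 CPM. Tslp and Postn were also lower in those 3, and Retnla did not separate them. Slc26a4 overlaps the lncRNA gene Gm59672 on the other strand, which had 10 counts against 4209 for Slc26a4 over all libraries.

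**Figure D2:**
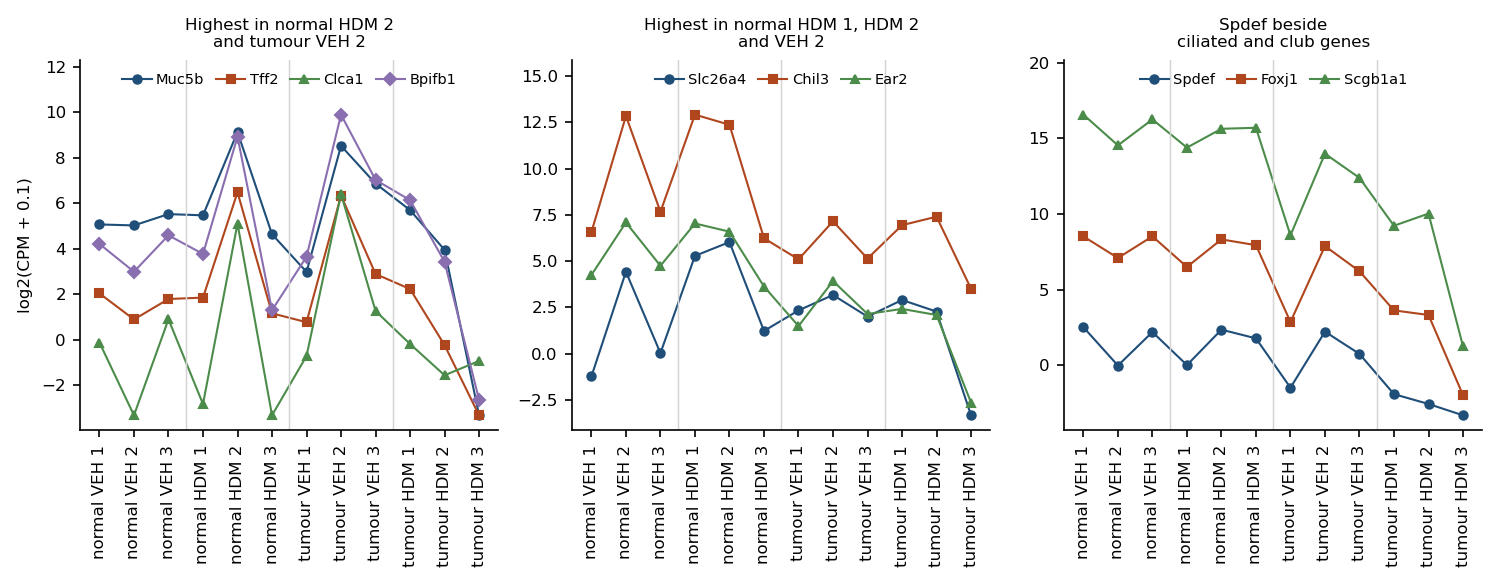
Levels as log2(CPM + 0.1) in the 12 libraries, in the order normal VEH, normal HDM, tumour VEH, tumour HDM, for 3 sets of genes chosen after their values were seen. Muc5b, Tff2 and Clca1 peak with Bpifb1 in normal HDM 2 and tumour VEH 2, Slc26a4 is high with Chil3 and Ear2 in normal VEH 2, HDM 1 and HDM 2, and Spdef is lowest in the 3 tumour HDM libraries, while Foxj1 is lower in tumour VEH 1 than in tumour HDM 1 and 2.

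Other genes were ordered by how closely their scaled log2 CPM over the 12 libraries followed the average of the 10 goblet genes. Among 15470 genes compared, the nearest was A2ml1, a protease inhibitor, with a mean absolute difference of 0.197 in units of SD. St8sia6 (a sialyltransferase, 0.272), the secretoglobin Scgb3a1 (0.293), the airway surface protein Bpifb1 (0.329), Cd177 (0.333), Tmc5 (0.349), Mst1 (0.377) and the antimicrobial protein Ltf (0.377) followed. The same measure for the goblet genes was 0.106 for Tff2, 0.202 for Muc5ac and 0.279 for Muc5b, and reached 0.688 for Slc26a4. Each goblet gene is itself part of that average, which lowers its difference, so these values are not comparable with those of the other genes. These are descriptions over 12 libraries that share depth and dissection, with no test.

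Bpifb1 showed the pattern in its values: 18.5, 7.87 and 24.1 CPM in normal VEH, 13.6, 489 and 2.36 in normal HDM, 12.5, 959 and 131 in tumour VEH, and 70.6, 10.7 and 0.0607 in tumour HDM. Scgb3a1 was at 1268 CPM in normal HDM replicate 2 and 782 CPM in tumour VEH replicate 2, and at 0.364 to 105 CPM elsewhere. General airway markers did not stand out to that extent in normal HDM replicate 2. Its summed level of 10 club cell genes was 76359 CPM, within the 30529 to 130567 CPM of the other normal libraries, and that of 10 ciliated cell genes was 962 CPM against 274 to 945 CPM. In tumour VEH replicate 2 the club sum was 23196 CPM and the ciliated sum 449 CPM, the highest of the 6 tumour libraries, in which the others ranged from 89.4 to 7074 and from 6.49 to 158 CPM. The part of retained airway in the goblet gene levels was not tested.

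Set against Foxj1, the master factor of ciliated cells, Muc5b and Spdef separated. The Muc5b to Foxj1 ratio, per length, was 0.0161 to 0.042 in normal VEH, 0.0862, 0.310 and 0.0178 in normal HDM, and 0.192 to 0.278 in tumour VEH. In tumour HDM it was 0.751 and 0.274 in replicates 1 and 2, and replicate 3 had 5 counts of Foxj1 and none of Muc5b. The ratio was thus higher in 5 tumour libraries than in 5 of the 6 normal ones, with normal HDM replicate 2 among the tumour values. The Spdef ratio varied less in normal libraries, from 0.00738 to 0.0178. In the 5 tumour libraries with over 5 counts of Foxj1 it ran from 0.00788 to 0.0406, in proportion no narrower than the Muc5b ratio there. Spdef itself was at only 0.255 CPM in tumour VEH replicate 1 and 0.164 and 0.0683 CPM in tumour HDM replicates 1 and 2. Its tumour ratios thus rest partly on few counts, and their range is uncertain. These ratios were chosen after their values were seen.

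Tumours were compared with normal lung first under VEH. None of the 10 goblet genes passed the test (edgeR quasi-likelihood test, p adjusted by Benjamini-Hochberg over all genes, called under 0.05), where 38.9% of the 22190 genes tested were called. Log2 fold changes (SE) were 5.10 (2.52) for Clca1, 3.31 (1.84) for Tff2, 2.87 (1.70) for Agr2, 2.14 (1.71) for Muc5b, 1.29 (1.34) for Muc5ac, 0.49 (1.47) for Foxa3, 0.11 (1.58) for Fcgbp, -0.35 (1.61) for Slc26a4 and -0.77 (1.03) for Spdef. Itln1, at 0 in normal VEH, was at least 6.38-fold higher in mean level than the floor of 3 counts per library, and was not called either. Adjusted p ran from 0.129 to 0.96, and DESeq2 called 0. The median of the 10 was 1.72, and stayed so with Itln1 at its bound, against -0.11 for all genes. No goblet gene had groups that did not overlap, where 52.4% of all genes did. Without tumour VEH replicate 2 and normal HDM replicate 2 the median was -0.15 over 9 genes, because Itln1 did not then pass the filter on low counts.

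Under HDM all 10 estimates were negative and 2 genes were called, both lower in tumours, where 51.9% of all genes were called and 28.9% were called lower. Spdef fell by 5.31 ± 1.33 on the log2 scale (SE, adjusted p = 0.00733, edgeR) and Muc5ac fell by 4.27 ± 1.53 (adjusted p = 0.0379, edgeR). In both, all 3 tumour HDM libraries lay under all 3 normal HDM libraries. Fcgbp was the other gene whose libraries did not overlap, making 3 of 10 where 63.1% of all genes did not, but its change of -4.58 ± 1.83 had an adjusted p of 0.0569 by edgeR. The remaining estimates were -4.58 (2.51) for Clca1, -4.18 (1.92) for Tff2, -3.23 (1.79) for Muc5b, -3.14 (1.74) for Slc26a4, -2.85 (1.62) for Foxa3, -1.99 (1.67) for Agr2 and -1.82 (2.23) for Itln1, with adjusted p up to 0.52. The median was -3.70 against -0.08 for all genes. It was -1.32 without normal HDM replicate 2, when Clca1 (4.31), Agr2 (0.18) and Itln1 (1.94) had positive estimates. The median was -5.60 without tumour HDM replicate 1, and -1.95 over the 9 genes fitted without the pair of high libraries. A share of 2 in 10 is under the share of all genes called lower.

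The Muc5ac call depended on single libraries. Its adjusted p by edgeR was 0.256 without normal HDM replicate 2, when the estimate was -1.96, and 0.0662, 0.0982 and 0.0898 without tumour HDM replicates 1, 2 and 3, when the estimates stayed at -4.87, -4.28 and -3.5. The Spdef call held without any of the 6 libraries in turn, and was lost, at an adjusted p of 0.0692, when the 4 libraries with conflicting prefixes were removed, with an estimate of -5.08. Club and ciliated markers were also lower in tumours under HDM, where 28.9% of all genes were called lower. Of 10 club cell genes 9 were called lower, with Scgb1a1 at -6.26 ± 1.83. Of 10 ciliated genes 9 were called lower, with Foxj1 at -4.89 ± 1.41. The summed club level was 30529 to 76359 CPM in normal HDM and 89.4 to 1434 CPM in tumour HDM, and the ciliated sum 274 to 962 and 6.49 to 33.6 CPM. Of 10 general epithelial genes 7 were called lower. All 10 alveolar type 2 cell genes and all 9 cardiac muscle genes tested were called lower too, so the fall was not particular to airway genes. The part of these losses in the Spdef and Muc5ac changes was not tested.

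**Figure D3:**
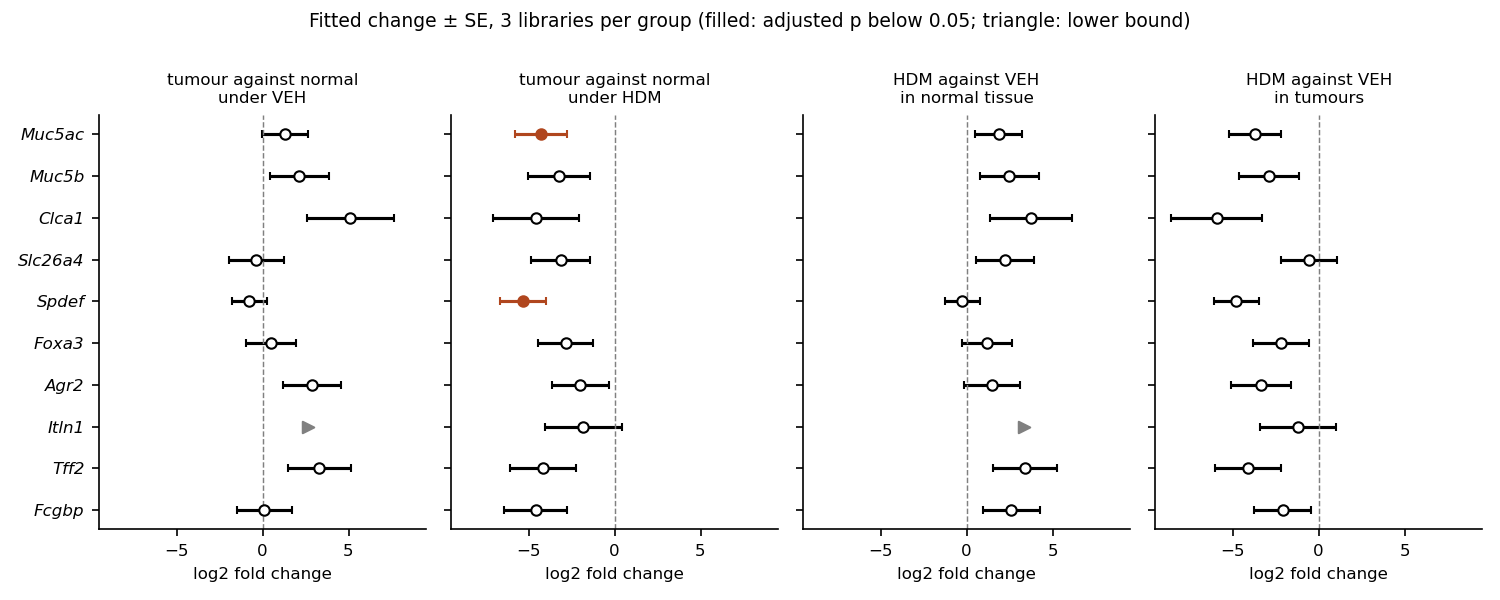
Fitted log2 fold change of each goblet gene with its SE in 4 comparisons of 3 against 3 libraries; filled points have an adjusted p below 0.05 and grey triangles are lower bounds for Itln1 against normal VEH, where it was at 0. Only Muc5ac and Spdef in tumour against normal under HDM are filled, at -4.27 and -5.31.

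HDM was compared with VEH next, in each tissue. In normal lung no goblet gene was called, none had an unadjusted p under 0.05, and 0% of all genes were called by edgeR, with 1230 of 22190 at an unadjusted p under 0.05. Estimates were positive for 9 genes, among them Clca1 at 3.75 (SE 2.39), Tff2 at 3.38 (1.85), Fcgbp at 2.59 (1.65), Muc5b at 2.49 (1.73), Slc26a4 at 2.23 (1.67), Muc5ac at 1.86 (1.35), Agr2 at 1.49 (1.64) and Foxa3 at 1.17 (1.46), and negative for Spdef at -0.24 (1.02). Itln1 was at least 9.92-fold above the floor. The median was 2.36, also with Itln1 at its bound, adjusted p ran from 0.887 to 1, and DESeq2 called 0. No goblet gene's groups stood clear of each other, where 10.3% of all genes did.

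Several of these estimates rested on normal HDM replicate 2. Without it, and without tumour VEH replicate 2, the estimates were -0.45 for Muc5ac, -0.11 for Muc5b, -0.11 for Tff2, -0.69 for Agr2 and -5.14 for Clca1. Slc26a4 stayed positive at 1.44, Foxa3 at 0.56 and Fcgbp at 0.41, and the median of the 9 genes fitted was -0.11. With the treatment labels of the 2 normal libraries of conflicting prefix exchanged, Slc26a4 was 5.15 ± 1.31 higher under HDM (adjusted p = 0.0687, edgeR). This exchange places the normal libraries already seen to be high in Slc26a4 and Chil3 under HDM. The estimate therefore follows from values already described and is no test of the labels. Removing all 4 conflicting libraries gave 6.36 ± 2.10 for Slc26a4 (adjusted p = 0.325, edgeR).

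**Figure D4:**
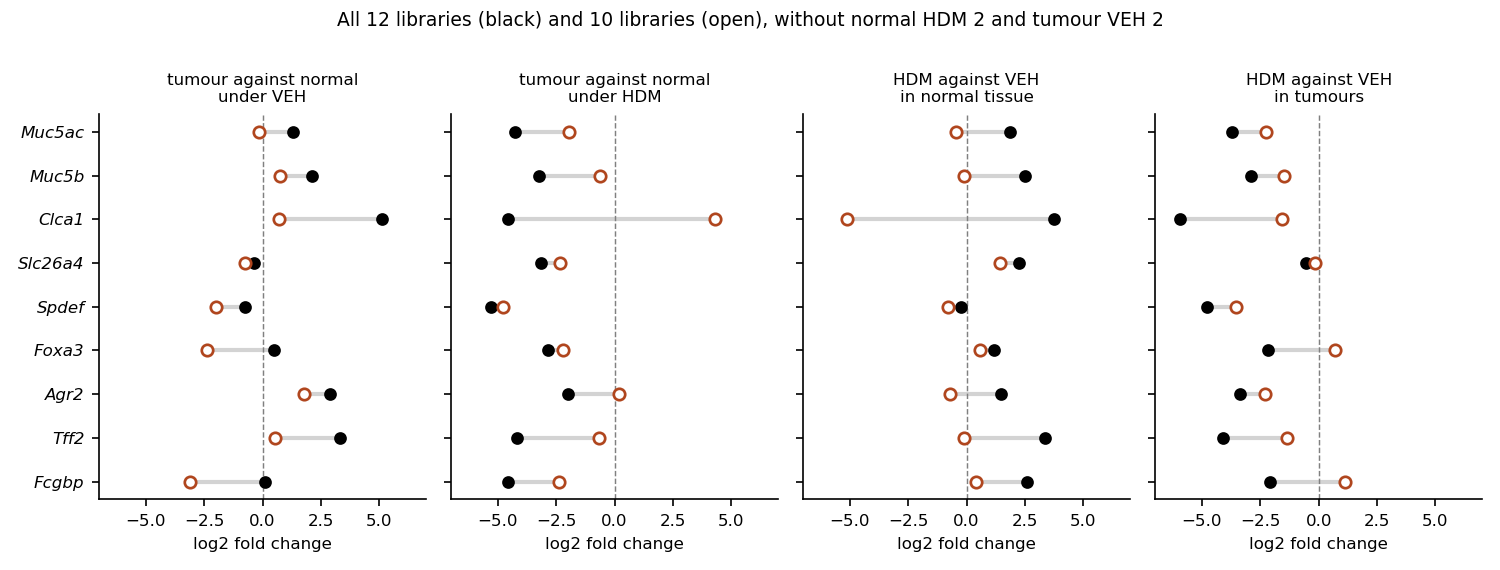
Log2 fold change of 9 goblet genes in 4 comparisons from all 12 libraries (black) and from 10 libraries without normal HDM replicate 2 and tumour VEH replicate 2 (open), an alternative chosen after seeing the data. In HDM against VEH in normal tissue Muc5b moves from 2.49 to -0.11. In tumour against normal under HDM Spdef stays low while Clca1 moves from -4.58 to 4.31. Itln1 is left out because it did not pass the filter on low counts in the 10 libraries.

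In tumours, HDM against VEH gave 10 negative estimates with none called by edgeR, where 0.0946% of all genes were called. Spdef was at -4.79 ± 1.32 (adjusted p = 0.172, edgeR), with all 3 tumour HDM libraries under all 3 tumour VEH libraries, the only goblet gene of the 10 for which that held, where 22.0% of all genes did not overlap. Of the goblet genes DESeq2 called Spdef alone, with an adjusted p of 0.00322, and the share of all genes that DESeq2 called is not given here. By edgeR, unadjusted p was under 0.05 for 3698 of the 22190 genes tested, and besides Spdef for Muc5ac at -3.71 ± 1.5 and Clca1 at -5.93 ± 2.64. The adjusted p of Muc5ac and Clca1 by edgeR was 0.263 and 0.295. The others were Tff2 at -4.10 (1.92), Agr2 at -3.37 (1.74), Muc5b at -2.88 (1.76), Foxa3 at -2.17 (1.62), Fcgbp at -2.10 (1.68), Itln1 at -1.20 (2.22) and Slc26a4 at -0.56 (1.63). The median was -3.12 against -0.03 for all genes, and was -1.41 without tumour VEH replicate 2 and -5.60 without tumour HDM replicate 1. Airway markers were also lower in estimate here: all 10 club cell genes were negative and 9 had an unadjusted p under 0.05, with Scgb1a1 at -3.74 ± 1.62, and 8 of 10 ciliated genes had an unadjusted p under 0.05, with Foxj1 at -3.84 ± 1.35, but none was called. The club sum was 599 to 23196 CPM in tumour VEH and 89.4 to 1434 CPM in tumour HDM, and the ciliated sum 18.2 to 449 and 6.49 to 33.6 CPM. Their part in the goblet gene estimates was not tested.

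The interaction, which is the tumour to normal difference under HDM minus that under VEH, was negative for all 10 genes and called for none, where 0% of all genes were called and 2084 of 22190 had an unadjusted p under 0.05. Of the goblet genes 4 had an unadjusted p under 0.05: Tff2 at -7.48 ± 2.66, Spdef at -4.54 ± 1.65, Muc5ac at -5.57 ± 2.02 and Clca1 at -9.68 ± 3.56 on the log2 scale. Their adjusted p by edgeR was 0.493 to 0.505, and DESeq2 called 0. The median of the 10 was -5.11 against -0.02 for all genes. Without normal HDM replicate 2 and tumour VEH replicate 2 together it was -1.37 over the goblet genes fitted. It was -2.74 without normal HDM replicate 2 alone, -3.88 without tumour VEH replicate 2 alone and -7.11 without tumour HDM replicate 1. The HDM estimates of these genes in normal lung and in tumours were thus not shown to differ.

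Other genes of mucus secretion were taken from a list of 35, of which 21 were tested. Under HDM 9 were called lower in tumours and 1 higher (edgeR), with a list median of -2.63, where 28.9% of all genes were called lower. The lower ones included Pigr, which carries antibodies into mucus, at -5.35 ± 1.65, the membrane mucin Muc1 at -3.90 ± 1.14, Creb3l1, a secretory pathway factor, at -2.97 ± 0.51, the chloride cotransporter Slc12a2 at -1.64 ± 0.19 and the chloride channel Ano1 at -1.12 ± 0.34. The gene that rose was Galnt7, which starts O-glycans, at 2.79 ± 0.33. Under VEH 4 were called lower and 1 higher, again Galnt7, at 2.29 ± 0.32, where 20.6% of all genes were called lower. In HDM against VEH none of the 21 was called in either tissue.

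Of 25 regulators of airway secretory fate, all tested, 12 were called lower in tumours and 1 higher under VEH, where 38.9% of all genes were called and 20.6% called lower (edgeR). Under HDM 17 were lower and 6 higher, where 51.9% of all genes were called and 28.9% called lower. Under HDM the lower ones included Nkx2-1, the lung lineage factor, at -4.53 ± 1.17 and Notch1, a receptor of the secretory fate signal, at -2.89 ± 0.31. Klf4 was lower at -2.19 ± 0.6 and Xbp1, a factor of the secretory stress response, at -0.86 ± 0.23, whereas Notch2 was higher at 0.97 ± 0.23. Of 25 type 2 genes 21 were tested, with 2 called lower under VEH and 7 lower and 2 higher under HDM, fewer than or near these shares of all genes. Under HDM these included Chil3 at -5.43 ± 2.0, Ear2 at -4.67 ± 1.39 and the receptor genes Il13ra1 at -2.48 ± 0.32 and Il1rl1 at 4.37 ± 1.29. Il13ra1 was also called lower under VEH, at -1.41 ± 0.31. No type 2 gene and no regulator was called in HDM against VEH. Il13, the cytokine that switches on the goblet programme, was too low to test, with 6 counts in normal HDM replicate 3 and 0 in every other library.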

How the data were processed

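The authors deposited raw read counts per Ensembl gene, with gene lengths, per the file headers. The submitters' processing notes name Trim Galore, STAR, featureCounts and Subread and the build mm39. Versions, annotation release and use of strand in counting are not given in the sources used here, so reads of overlapping genes cannot be told apart. Libraries were stranded and paired-end, per the labels' protocols, which do not settle whether poly(A) RNA was selected or ribosomal RNA depleted. Of the counts from 2 to 50 in the table, 75.7% were even, as were 79 of the 101 goblet gene values above 0, so small counts may step by more than 1 read; the cause was not tested.

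Counts were tested in R 4.3.3 with edgeR 4.0.16: filterByExpr with a minimum count of 10 left 22190 genes, scaling was by TMM, and the 12 libraries entered a robust quasi-likelihood model with 4 group coefficients. Tests were two-sided and adjusted over all genes tested. SE is the size of the log2 fold change over the root of its F statistic. The script was tested on simulated data. Symbols and coordinates came from GENCODE M39 (78168 of 78298 IDs matched).

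Every goblet gene is named. Of the other lists up to 6 genes may be named from a test, in order of mean CPM among those called, and the 8 nearest genes in pattern (mean log2 CPM of at least 1). Genes named for their values in single libraries, such as Retnla and Gata3, were picked after those values were seen. Members and lists were chosen with earlier results of these data known. Alternatives were other scalings, no or a stricter filter, DESeq2 1.42.0, replicate and prefix blocks, removal or exchange of libraries with conflicting prefixes, each library left out, and, added after seeing the data, removal of normal HDM replicate 2 with tumour VEH replicate 2.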

Additional observations from a re-analysis of the deposited data

How the results depend on the processing

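Of the goblet genes, 2 were called in tumour against normal under HDM. The count was 1 with no filter on low counts, 4 with DESeq2, 0 without the 4 libraries of conflicting prefix, 4 with the normal labels exchanged, 1 without normal HDM replicate 2 and tumour VEH replicate 2 together, and 1 to 3 with each library left out. The share of all genes called under each of these settings is not given here. A changed count therefore cannot be read as particular to the goblet genes. Muc5ac was lost with no filter (adjusted p = 0.112, edgeR). Tff2 (adjusted p = 0.0395) and Fcgbp (0.0172) were gained with DESeq2. Slc26a4 (0.0345) and Fcgbp (0.0478) were gained by exchange (edgeR), which places all normal libraries high in Slc26a4 under HDM. Foxa3 (0.0487) and Fcgbp (0.0327) were gained without tumour HDM replicate 1 (edgeR). Under HDM against VEH in tumours DESeq2 called 1. Requiring 10 counts or more in each library left no goblet gene. Scaling by library size alone moved the median log2 fold change of all genes from -0.11 to 0.03 under VEH and from -0.08 to 0.10 under HDM, and under neither other scaling did any of the 10 genes change direction.

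Replicate numbers showed no clear pairing of the samples: deviations of same-numbered libraries correlated between -0.36 and 0.28, and 5 of 12 libraries correlated best with their own number. The number expected without any pairing was not computed, and the prefixes were not checked in this way. With a replicate block the count under HDM was 1, and Slc26a4 (0.98) and Fcgbp (-1.14) in tumour against normal under VEH and Clca1 (-0.52) in HDM against VEH in normal tissue changed sign. With a prefix block the count stayed 2 but the genes changed, with Muc5ac lost (adjusted p = 0.0929, edgeR) and Slc26a4 gained (0.0473).

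Signs that changed were otherwise all of uncalled estimates. In tumour against normal under VEH, Slc26a4 was at 3.66, Foxa3 at -0.89 and Fcgbp at -0.78 with the prefix block, Slc26a4 at 3.57 without the conflicting libraries, and Slc26a4 at 2.33 and Foxa3 at -0.12 by exchange. In HDM against VEH in normal tissue the prefix block gave 0.08 for Spdef and -0.75 for Agr2. Without the 2 libraries of high mucin, tumour against normal under VEH was -0.15 for Muc5ac, -2.38 for Foxa3 and -3.11 for Fcgbp, and under HDM 4.31 for Clca1 and 0.19 for Agr2. HDM against VEH was then -0.45 for Muc5ac, -0.11 for Muc5b, -5.14 for Clca1, -0.69 for Agr2 and -0.11 for Tff2 in normal tissue and 0.71 for Foxa3 and 1.12 for Fcgbp in tumours. The cause was not tested.

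With each library left out, tumour against normal under VEH ranged from -0.15 to 1.94 for Muc5ac, -0.91 to 3.24 for Slc26a4, -2.38 to 1.34 for Foxa3 and -3.11 to 0.76 for Fcgbp. Under HDM it ranged from -5.17 to 4.31 for Clca1, -3.85 to 0.18 for Agr2 and -7.85 to 1.94 for Itln1. HDM against VEH in normal tissue ranged from -0.45 to 2.36 for Muc5ac, -0.11 to 2.98 for Muc5b, -5.14 to 4.86 for Clca1, -0.78 to 0.21 for Spdef, -0.69 to 2.5 for Agr2 and -0.11 to 3.92 for Tff2. In tumours it ranged from -1.30 to 0.06 for Slc26a4, -6.32 to 0.71 for Foxa3, -7.36 to 1.76 for Itln1 and -4.82 to 1.11 for Fcgbp. With 3 libraries per group and few counts of Foxa3, Itln1 and Spdef, differences of these genes are limited by depth as well as by spread.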

Other observations

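The library-name prefixes join each tumour library to a normal library, and the goblet genes can be read within these 6 joins as values with no test. Spdef was lower in the tumour library in 5 of 6, with log2 differences of -4.10, -1.04, -3.69, -4.40 and -2.73, and 0.02 in the other, where the tumour is VEH replicate 2. Foxa3 and Fcgbp were also lower in 5 of 6. For Foxa3 this rests on few counts: normal HDM replicate 1 had 0.164 CPM and normal VEH replicate 2 had 0.189 CPM, against 0 in the tumour libraries joined to them. Muc5ac, Muc5b, Agr2 and Tff2 were lower in 4 of 6, and in each of these genes the joins of tumour VEH replicates 2 and 3 went the other way: Muc5b by 3.0 and 2.24, Tff2 by 4.56 and 1.74. Clca1 was lower in 2 of 6 and higher in 4, and Itln1 was lower in 2, higher in 2 and at 0 in both libraries of the others. Slc26a4 was lower in 3 of 6, namely the joins to the tumour HDM libraries, and higher in the joins to the tumour VEH libraries, by 3.64, 3.17 and 0.78.

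Retnla, a secreted protein of the type 2 list, was high in the libraries of high mucin and in tumour VEH replicate 3, unlike Chil3. It was at 132, 79.8 and 201 CPM in normal VEH, 69.7, 493 and 69.1 CPM in normal HDM, 47.2, 655 and 1010 CPM in tumour VEH and 133, 47.8 and 0.091 CPM in tumour HDM. It was not called in any of the 5 comparisons by edgeR. Tumour VEH replicate 3 came next after the pair of high-mucin libraries for Muc5b, at 117 CPM, and Agr2, at 6.64 CPM.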
